A study of Homo sapiens with 24 samples.

Results

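The forkhead (FOX) genes encode transcription factors that share a DNA-binding domain, the forkhead or winged-helix domain. They were examined here through the histone marks at their promoters in PANC-1, an established human cell line of pancreatic ductal carcinoma origin. The 35 genes were taken by name, FOXA1, FOXA3, FOXB1, FOXB2, FOXC1, FOXC2, FOXD1, FOXD2, FOXD3, FOXE1, FOXE3, FOXF1, FOXF2, FOXH1, FOXI1, FOXJ1, FOXJ2, FOXJ3, FOXK1, FOXK2, FOXL1, FOXL2, FOXM1, FOXN1, FOXN2, FOXN3, FOXN4, FOXO1, FOXO3, FOXP1, FOXP2, FOXP4, FOXQ1, FOXR1 and FOXS1, out of 19794 protein-coding genes, and all 35 were found in the annotation. Each gene was given a window of 5 kb, 2500 bp to each side of each of its transcription start sites (TSSs), with overlapping windows merged. The measure was the number of base pairs of that window that lay under peaks, and a mark was called present where at least 1 bp did.

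Chromatin immunoprecipitation followed by sequencing was done for H3K4me3, a mark of promoters, H3K27ac, a mark of active promoters and enhancers, and H3K27me3, the mark laid down by Polycomb complexes at silenced genes. All cells were PANC-1 cells transfected with siRNA by RNAiMAX. The groups were siControl (control siRNA, no TGFβ), siControl+TGFβ (control siRNA, then TGFβ at 10 ng/ml for 48 h, given to induce epithelial-mesenchymal transition) and siPHF13+TGFβ (siRNA against PHF13, a reader of H3K4me3, with the same TGFβ). The study's 6 input libraries were not analysed here. Each group had 2 libraries per mark, 18 peak lists in all. Paired values are replicate 1 and replicate 2 of a group, and where groups are not named they follow in the order siControl, siControl+TGFβ, siPHF13+TGFβ. Nothing in the labels says that the 2 libraries came from separate cultures, so p-values measure the spread between these libraries, which may be technical.

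Forkhead factors of the FOXA group open closed chromatin in the endoderm, from which the pancreas arises. FOXC, FOXF and FOXL1 act in mesoderm and mesenchyme, FOXO factors carry signals from insulin and AKT, FOXM1 drives the genes of mitosis, and FOXH1 is a DNA-binding partner of SMAD2 and SMAD3 in Nodal and activin signalling. FOXC2 and FOXQ1 are known for their part in epithelial-mesenchymal transition. A promoter that holds H3K4me3 and H3K27me3 together is known as bivalent, a state described for developmental regulators that are silent in a given cell.

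The lists limited every comparison. They held 27869 to 39202 H3K4me3 peaks, 6004 to 36104 H3K27ac peaks and 59573 to 165717 H3K27me3 peaks, and the shortest list of each mark was siPHF13+TGFβ replicate 1. In its H3K27ac list, 20.3% of all genes had a peak, against 48.2% to 61.1% in the other 5 lists. Peak names inside the lists labelled siPHF13+TGFβ read NCT, which the study uses for siControl+TGFβ, and those inside the lists labelled siControl+TGFβ read 3AT. Groups follow the labels, and an exchange of these groups would turn the directions of the depletion comparison and put siPHF13+TGFβ in place of siControl+TGFβ in the other. PHF13 itself had H3K4me3 over 2637 and 3010 bp with siControl alone, 3018 and 3084 bp with siControl under TGFβ and 2205 and 3018 bp with siPHF13 under TGFβ, which does not measure the depletion of its transcript. Of 6 pancreatic ductal markers, 5 had H3K4me3 in all 6 lists (KRT7 had none), as did 0 of 6 acinar, 0 of 4 endocrine and 0 of 4 blood markers and 1 of 3 hepatocyte markers, APOA2. H3K27ac was found in at least 5 lists at 4 of the 6 ductal markers and at none of the others.

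H3K4me3 was present at most forkhead genes. It was found in all 6 lists at 29 of the 35 genes (82.9%), against 70.7% of all protein-coding genes. FOXE1, a thyroid regulator, was covered in 5 lists, and FOXB2, FOXI1, FOXN1, FOXR1 and FOXS1 in 0. H3K27ac was found in all 6 lists at 7 genes (20%; 20% of all genes) and in at least 5 lists at 18 (51.4%; 47.7% of all genes). Without siPHF13+TGFβ replicate 1, 17 genes had H3K27ac in the remaining 5 lists. That share was not computed over all genes, so the rise cannot be read as particular to the forkhead genes. H3K27me3 was found in all 6 lists at 12 genes (34.3%), against 18.0% of all genes, and in at least 1 list at 22 (62.9%), against 40.2%. These shares describe the chosen genes and were not tested.

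H3K27me3 was called as broad regions and the other marks as narrow peaks, with different thresholds, so their q and fold values are not on 1 scale. The highest −log10 q of an H3K27me3 region at a forkhead gene was 3.19, at FOXN4 in siPHF13+TGFβ replicate 1. Among narrow peaks, H3K4me3 reached 84.5 at FOXK1 and H3K27ac 71.4 at FOXN2. The highest fold enrichment over the control per gene and list, where there was a peak, ran from 2.32 to 4.55 for H3K27me3 (median 3.15), from 2.36 to 12.4 for H3K4me3 (median 5.75) and from 2.49 to 11.4 for H3K27ac (median 5.84). With only peaks of −log10 q of at least 3 kept, H3K27me3 was found in at least 1 list at 3 members (8.57%; 8.0% of all genes) and in all 6 lists at 0 (0.349% of all genes). For H3K4me3 the count in all 6 lists was then 29 (82.9%; 70.0% of all genes).

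By the marks ever seen in their windows, the genes fell into 5 classes. H3K4me3 with H3K27ac and no H3K27me3 in any list was found at 12 genes (34.3%; 48.0% of all genes). All 3 marks were found at 9 (25.7%; 13.5% of all genes), and H3K4me3 with H3K27me3 but no H3K27ac at another 9 (25.7%; 12.6% of all genes). H3K27me3 without H3K4me3 was found at 4 genes (11.4%; 14.1% of all genes), and none of these 4 had H3K27ac. FOXI1, a regulator of the inner ear and of acid-secreting kidney cells, carried none of the marks, as did 10.1% of all genes. The heat map of coverage by library orders the genes by these classes.

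**Figure D1:**
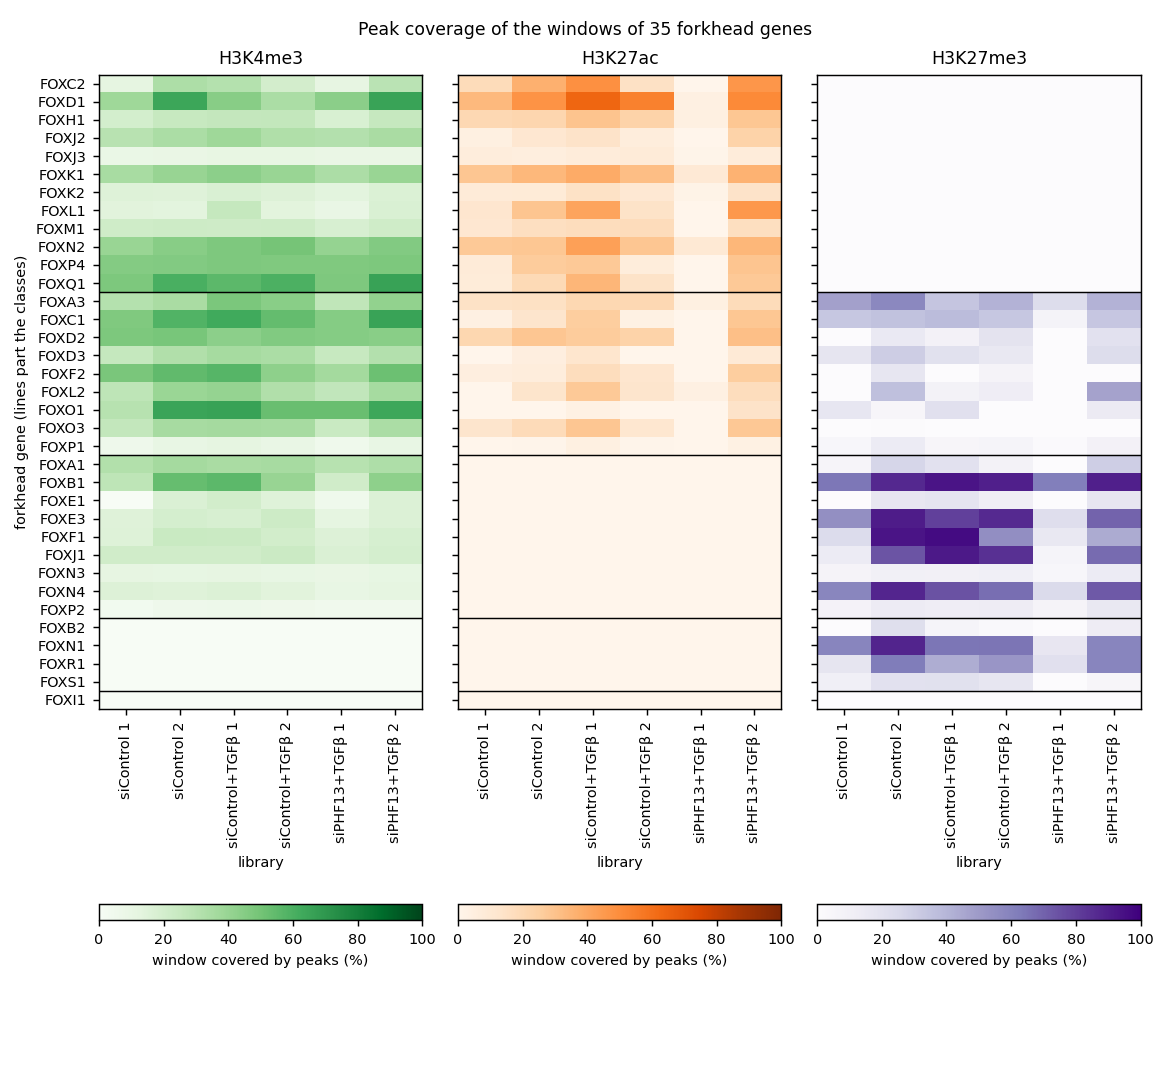
Percent of each gene's window covered by peaks, from 0 to 100 (color scale), with 1 row per forkhead gene and 1 column per library, for H3K4me3, H3K27ac and H3K27me3. Black lines part the 12, 9, 9, 4 and 1 genes of the classes, and the siPHF13+TGFβ replicate 1 column is pale in the H3K27ac panel, where 8 of the 35 genes had a peak.

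The 12 genes with H3K4me3 and H3K27ac and no H3K27me3 were FOXC2, FOXD1, FOXH1, FOXJ2, FOXJ3, FOXK1, FOXK2, FOXL1, FOXM1, FOXN2, FOXP4 and FOXQ1. Each had H3K4me3 in 6 lists and H3K27ac in at least 5. Broadly expressed factors made up 7 of them: among all 11 genes of that group, H3K4me3 was present in all 6 lists at 11, H3K27ac in at least 5 lists at 8 and H3K27me3 in 0 lists at 7. FOXK1, which represses autophagy genes and promotes glycolysis, had the most H3K27ac of all members in siControl cells. Its H3K27ac covered 2855 and 3395 bp with siControl alone, 3839 and 3148 bp with siControl under TGFβ and 946 and 3576 bp with siPHF13 under TGFβ. H3K4me3 there covered 3508 and 4005 bp, then 4307 and 3974 bp, then 3371 and 3950 bp. The FOXK1 signal came from 2 separate promoters, since the window of the canonical TSS held a mean of 2546 bp of H3K4me3 and the window of an internal TSS 1307 bp, and both carried H3K27ac in 6 lists.

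FOXM1 (GRCh37, as for all positions here, chromosome 12, 2966846 to 2986340, minus strand) shares its promoter with RHNO1, whose TSS lies 25 bp upstream, so their peaks cannot be told apart. H3K4me3 covered 2210 and 2293 bp of the FOXM1 window with siControl alone, 2241 and 2280 bp with siControl under TGFβ and 1853 and 2209 bp with siPHF13 under TGFβ. Both siPHF13+TGFβ libraries lay below both siControl+TGFβ libraries, and siControl and siControl+TGFβ overlapped. H3K27ac covered 1124 and 1664 bp, then 1754 and 1799 bp, then 0 and 1683 bp. Among 8 FOXM1 targets, genes of mitosis, H3K4me3 was present in all 6 lists at 8 and H3K27ac in at least 5 lists at 8, while H3K27me3 was absent from all lists at 7.

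FOXP4, a repressor of the lung and gut epithelium, had H3K4me3 of nearly the same length in every library. It covered 2394 and 2418 bp with siControl alone, 2485 and 2452 bp with siControl under TGFβ and 2457 and 2499 bp with siPHF13 under TGFβ. H3K27ac at the same promoter was uneven, with 421 and 1397 bp, then 1446 and 366 bp, then 0 and 1539 bp. The replicates of each group lay farther apart in H3K27ac than all 6 libraries did in H3K4me3. FOXN2, FOXJ2, FOXJ3 and FOXK2, the other broadly expressed members of the class, had H3K4me3 over 1696 to 2692 bp in all their lists.

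FOXH1 (chromosome 8, 145698795 to 145701232, minus strand), the SMAD partner, had its peaks away from its own start. H3K4me3 covered 996 and 1234 bp of its window with siControl alone, 1304 and 1317 bp with siControl under TGFβ and 881 and 1264 bp with siPHF13 under TGFβ. H3K27ac covered 1007 and 1065 bp, then 1473 and 1148 bp, then 204 and 1417 bp. All of this lay upstream of the FOXH1 TSS, with 0 bp of H3K4me3 or H3K27ac downstream and 0 lists with a peak over the TSS itself. The TSS of PPP1R16A lies 2133 bp upstream, on the side of the peaks, so the marks in this window cannot be assigned to FOXH1. Among 8 FOXH1 partners and Nodal-pathway genes, SMAD2, SMAD3, SMAD4, GSC and MIXL1 had H3K4me3 in all 6 lists. GSC, MIXL1 and NODAL had H3K27me3 in all 6 lists, and LEFTY1 and LEFTY2 none of the marks.

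FOXD1, a regulator of the kidney stroma, had the widest H3K27ac per window, at 42.2% on average. It covered 1673 and 2376 bp with siControl alone, 3168 and 2711 bp with siControl under TGFβ and 183 and 2553 bp with siPHF13 under TGFβ. Both siControl+TGFβ libraries lay above both siControl libraries and above both siPHF13+TGFβ libraries. H3K4me3 at FOXD1 covered 1897 and 3205 bp with siControl alone, 2218 and 1718 bp with siControl under TGFβ and 2174 and 3269 bp with siPHF13 under TGFβ, and the groups overlapped.

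FOXQ1 had the widest H3K4me3 per window of all members, 56.0% on average. It covered 2371 and 3020 bp with siControl alone, 2791 and 2978 bp with siControl under TGFβ and 2346 and 3291 bp with siPHF13 under TGFβ. H3K27ac covered 383 and 976 bp, then 1725 and 707 bp, then 0 and 1377 bp. For both marks the groups overlapped, and all H3K27ac lay downstream of the TSS.

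Peaks were not centred on the start at every member. In the plot of peaks around the canonical TSS, that of the transcript tagged as the gene's representative, H3K4me3 lay mostly downstream at FOXC1 (577 bp upstream and 2188 bp downstream, means of 6 lists), FOXC2 (19.2 and 1121 bp), FOXF2 (465 and 1959 bp), FOXK1 (257 and 2289 bp) and FOXO1 (536 and 2216 bp). It lay mostly upstream at FOXA3 (1938 and 74.3 bp), FOXD2 (1603 and 688 bp), FOXF1 (987 and 0 bp) and FOXN4 (1275 and 109 bp). At each of these genes the side with more H3K4me3 was the same in all 6 lists.

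**Figure D2:**
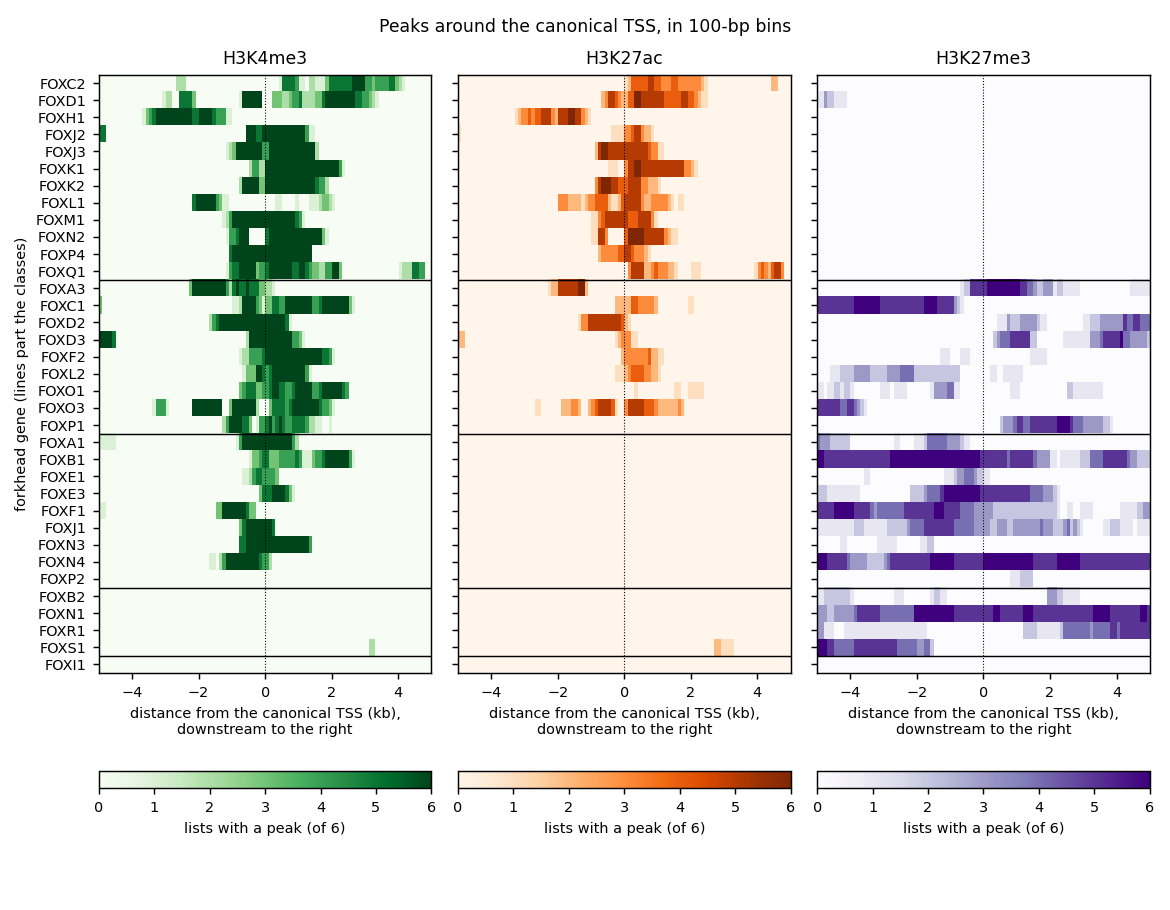
Number of lists, of 6, with a peak over each 100-bp bin from 5 kb upstream to 5 kb downstream of the canonical TSS (dotted line), 1 row per forkhead gene, in the order of the heat map by library. H3K4me3 lies upstream of the TSS at FOXF1 (987 bp upstream and 0 bp downstream on average), and H3K27me3 at FOXC1 ends upstream of it (1495 bp upstream and 0 bp downstream on average).

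All 3 marks were seen at FOXA3, FOXC1, FOXD2, FOXD3, FOXF2, FOXL2, FOXO1, FOXO3 and FOXP1. The TSS of FOXL2NB lies 80 bp upstream of that of FOXL2, so their peaks cannot be told apart. FOXA3, a liver and gut factor of the endoderm, had H3K4me3 and H3K27ac upstream and H3K27me3 downstream in all 6 lists (420 bp of H3K27me3 upstream and 1752 bp downstream on average). The TSS of SYMPK lies 1132 bp upstream of that of FOXA3, on the side with H3K4me3 and H3K27ac. The H3K4me3 and H3K27ac of this window, and their differences between groups, therefore cannot be assigned to FOXA3 rather than SYMPK. H3K4me3 at FOXA3 covered 1662 and 1850 bp with siControl alone, 2557 and 2340 bp with siControl under TGFβ and 1448 and 2219 bp with siPHF13 under TGFβ. Its H3K27me3 covered 2550 and 3073 bp, then 1795 and 2206 bp, then 1214 and 2191 bp. H3K4me3 was thus higher and H3K27me3 lower in both siControl+TGFβ libraries than in both siControl libraries.

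FOXC1, an eye and mesoderm regulator, held H3K27me3 only upstream of its TSS and H3K4me3 mostly downstream. H3K4me3 covered 2337 and 2915 bp with siControl alone, 3134 and 2682 bp with siControl under TGFβ and 2256 and 3268 bp with siPHF13 under TGFβ. H3K27me3 covered 1643 and 1775 bp, then 1881 and 1644 bp, then 365 and 1664 bp. The same bases lay under both marks in 1 of 6 pairs of lists, a pair being the H3K4me3 and the H3K27me3 list of the same group and replicate number. H3K27ac was uneven, with 184 and 641 bp, then 1288 and 162 bp, then 0 and 1409 bp.

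FOXO1 and FOXO3 encode factors regulated by AKT. FOXO3 had H3K27ac over 1409 and 2070 bp with siControl alone, 3201 and 1293 bp with siControl under TGFβ and 0 and 3100 bp with siPHF13 under TGFβ, whereas FOXO1 had it in 2 lists only, 170 bp in siControl+TGFβ replicate 1 and 692 bp in siPHF13+TGFβ replicate 2. H3K27me3 was found at FOXO1 in 4 lists (841 and 247 bp with siControl alone, 1046 and 0 bp with siControl under TGFβ and 0 and 716 bp with siPHF13 under TGFβ) and at FOXO3 in 2, over 86 and 24 bp. Both had wide H3K4me3, at 1511 and 3256 bp, then 3299 and 2626 bp, then 2623 and 3202 bp for FOXO1, and 2918 and 3938 bp, then 3986 and 3911 bp, then 2646 and 3808 bp for FOXO3. Whether these genes differ was not tested. Among 8 FOXO regulators, H3K4me3 was present in all 6 lists at 8, H3K27ac in at least 5 lists at 5 and H3K27me3 in all 6 lists at SGK1 and USP7. Among 10 FOXO targets, these counts were 10 for H3K4me3, 6 for H3K27ac and 1, SESN3, for H3K27me3.

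FOXP1, a factor of the B cell and lung lineages, has 33 TSSs in 9 separate windows. H3K4me3 in all 6 lists was found in 3 of these windows, and only the 1 with the canonical TSS had H3K27me3 in all 6, with means of 2026 bp of H3K4me3, 2272 bp of H3K27me3 and 0 bp of H3K27ac. At the other 2, internal promoters, H3K27ac was found in 3 and 4 lists and H3K27me3 in 3 and 2. The gene-level class of FOXP1 thus joined promoters with different marks. In siControl cells FOXP1 had the most H3K4me3 of all members over its windows, 3436 and 5598 bp, with 6385 and 5300 bp with siControl under TGFβ and 2903 and 5514 bp with siPHF13 under TGFβ.

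H3K4me3 with H3K27me3 and no H3K27ac was found at FOXA1, FOXB1, FOXE1, FOXE3, FOXF1, FOXJ1, FOXN3, FOXN4 and FOXP2. Among them, FOXB1 acts in the hypothalamus, FOXE3 in the lens, FOXJ1 in ciliated cells, FOXN4 in the retina and spinal cord and FOXP2 in brain and lung. FOXA1, the pioneer factor of the endoderm, was 1 of them. Its H3K4me3 covered 1595 and 1812 bp with siControl alone, 1733 and 1765 bp with siControl under TGFβ and 1521 and 1655 bp with siPHF13 under TGFβ and lay over the TSS in 6 lists. H3K27me3 covered 288 and 1329 bp, then 997 and 404 bp, then 0 and 1485 bp, all of it upstream of the TSS, and H3K27ac 0 bp in every list. The TSS of TTC6 lies 380 bp upstream of that of FOXA1.

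At 4 of these genes the H3K4me3 peaks were embedded in H3K27me3. All H3K4me3 of the window lay inside H3K27me3 in 5 of 6 pairs of lists at FOXE3 and FOXN4 and in 4 at FOXF1 and FOXP2. At FOXN4, H3K27me3 covered 5865 and 8841 bp with siControl alone, 7503 and 6711 bp with siControl under TGFβ and 2470 and 7291 bp with siPHF13 under TGFβ, and H3K4me3 1591 and 1518 bp, then 1616 and 1399 bp, then 1021 and 1159 bp. FOXB1 had the widest H3K27me3 per window, 80.8% on average. Both marks were present in all 6 lists at 10 of the 35 genes (28.6%), against 11.3% of all genes, namely FOXA3, FOXB1, FOXC1, FOXE3, FOXF1, FOXJ1, FOXN3, FOXN4, FOXP1 and FOXP2. The same bases were under both in at least 4 of the 6 pairs at 11 genes (31.4%), and this share was not computed over all genes.

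FOXN3 and FOXP2 joined promoters in different states. FOXN3, a repressor tied to the cell cycle checkpoint, was the single broadly expressed member with no H3K27ac. Its H3K4me3 covered 3378 and 3246 bp with siControl alone, 3373 and 3057 bp with siControl under TGFβ and 2740 and 3257 bp with siPHF13 under TGFβ. Its H3K27me3 covered 2022 and 2980 bp, then 2884 and 3207 bp, then 1360 and 4257 bp. The window with the canonical TSS held a mean of 2118 bp of H3K4me3 and 79.3 bp of H3K27me3, and the window of its most upstream TSSs 1057 bp and 2706 bp. At FOXP2 the canonical TSS had no H3K4me3, and both marks lay in the window of the 5 most upstream TSSs (1912 bp of H3K4me3 and 3927 bp of H3K27me3 on average).

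H3K27me3 without the other marks was found at FOXB2, FOXN1, FOXR1 and FOXS1. FOXN1, the regulator of thymic epithelium, had the most base pairs of H3K27me3 of all members in siControl cells, over windows of 10107 bp in all. The mark covered 5923 and 8895 bp with siControl alone, 6491 and 6520 bp with siControl under TGFβ and 1677 and 5936 bp with siPHF13 under TGFβ. Its average share of these windows was 58.4%, below the 80.8% of FOXB1. FOXS1 (chromosome 20, 30432106 to 30433407, minus strand), a gene of sensory neurons and pericytes, had less in a window of 5001 bp: 542 and 1003 bp, then 1030 and 852 bp, then 0 and 252 bp. All of the FOXS1 signal lay upstream of the TSS. FOXB2 had 0 and 1090 bp with siControl alone, 303 and 115 bp with siControl under TGFβ and 0 and 640 bp with siPHF13 under TGFβ.

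The CG dinucleotides around the TSS were counted as a property that the classes did not use. The 1001 bp around the canonical TSS held a median of 92.0 CG dinucleotides over the 35 genes and 66.0 over all genes. The medians were 96.5 in the class with H3K4me3 and H3K27ac, 119 in that with all 3 marks, 89.0 in that with H3K4me3 and H3K27me3 and 54.5 among the 4 genes with H3K27me3 alone. FOXI1 had 44. Over all genes the medians of these classes were 78.0, 78.0, 73.0, 15.0 and 14, so the forkhead genes held more in each. The lowest value, 7, was at the canonical TSS of FOXP2, which had no H3K4me3, and the highest, 171, at FOXK2. The sequence TGTTTAC, a core bound by forkhead proteins, or its reverse complement GTAAACA, was in 0 of the 35 promoters between 250 bases before and 50 after the canonical TSS, and in 2.47% of the promoters of all genes, which says only that these letters are not in these windows.

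Several members are neighbours in the genome. FOXF1, FOXC2 and FOXL1 lie together on chromosome 16, the TSS of FOXC2 being 56.3 kb from that of FOXF1 and 11.7 kb from that of FOXL1. FOXF1 (86544133 to 86549028, plus strand), which patterns the mesenchyme of lung and gut, had H3K27me3 over 1174 and 4652 bp with siControl alone, 4817 and 2752 bp with siControl under TGFβ and 796 and 2194 bp with siPHF13 under TGFβ. H3K4me3 there covered 775 and 1208 bp, then 1183 and 1032 bp, then 791 and 933 bp, and H3K27ac 0 bp in every list. The adjacent FOXC2 and FOXL1 had no H3K27me3 in any list.

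FOXC2 (86600435 to 86603334, plus strand) had H3K27ac over 909 and 1818 bp with siControl alone, 2434 and 755 bp with siControl under TGFβ and 0 and 2315 bp with siPHF13 under TGFβ. Its H3K4me3 covered 602 and 1673 bp, then 1552 and 1011 bp, then 562 and 1448 bp. At FOXL1 (86609974 to 86617084, plus strand), a gene of the gut mesenchyme, H3K27ac covered 849 and 2095 bp, then 2966 and 1033 bp, then 0 and 3269 bp, and H3K4me3 982 and 926 bp, then 1842 and 956 bp, then 695 and 1236 bp. For both marks at both genes the groups overlapped. The strongest H3K4me3 peak of FOXC2 in each list had a fold enrichment of 2.36 to 2.91, against a median of 5.75 over members and lists.

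In the 51.3 kb between the windows of FOXF1 and FOXC2, H3K27me3 covered 8.24% and 15.6% with siControl alone, 13% and 12.4% with siControl under TGFβ and 3.50% and 10.7% with siPHF13 under TGFβ. Its bins lay between 3.25 and 16.25 kb from the TSS of FOXF1, as the map of the clusters shows. The 6.72 kb between the windows of FOXC2 and FOXL1 held 0% in every list.

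**Figure D3:**
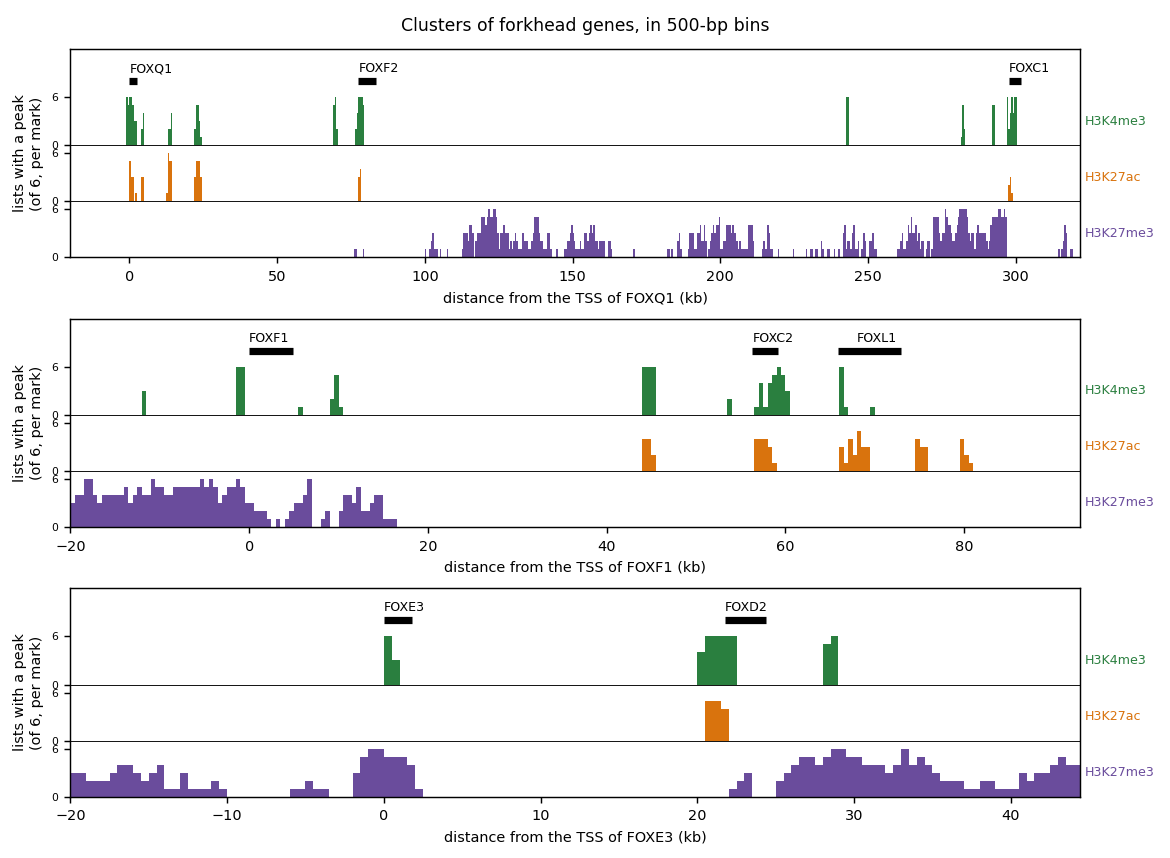
Number of lists, of 6, in which peaks cover most of each 500-bp bin, for H3K4me3 (top track), H3K27ac (middle) and H3K27me3 (bottom) along 3 clusters of forkhead genes, by distance in kb from the TSS of the first gene named. Black bars are the genes, and H3K27me3 is seen between FOXF2 and FOXC1 and in none of the 72.5 kb between the windows of FOXQ1 and FOXF2.

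On chromosome 6, FOXQ1, FOXF2 and FOXC1 lie within 298 kb. The 72.5 kb between the windows of FOXQ1 and FOXF2 held H3K27ac over 5.27% and 5.49% with siControl alone, 7.0% and 5.09% with siControl under TGFβ and 0.397% and 6.26% with siPHF13 under TGFβ, and H3K27me3 over 0% in all 6 lists. The 215 kb between FOXF2 and FOXC1 held the reverse, with H3K27ac at 0% in all 6 lists and H3K27me3 at 13.1% and 47.3%, 29.1% and 31.7%, and 6.22% and 32.1%. FOXF2, which lies between these stretches, had H3K27ac over 265 and 318 bp with siControl alone, 879 and 588 bp with siControl under TGFβ and 0 and 1283 bp with siPHF13 under TGFβ. Its H3K27me3 was found in siControl replicate 2 (844 bp) and siControl+TGFβ replicate 2 (331 bp) only, and its H3K4me3 covered 2406 and 2728 bp, then 2864 and 2131 bp, then 1824 and 2588 bp. On chromosome 1, the TSS of FOXE3 lies 21.8 kb from that of FOXD2, with 0% of the 16.8 kb between their windows under any of the marks. FOXE3 had H3K27me3 in 6 lists and no H3K27ac, and FOXD2 H3K27ac in 5 lists and H3K27me3 in 4.

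For the comparisons of TGFβ with no TGFβ and of PHF13 depletion with control siRNA under TGFβ, the covered length of the members was set beside that of all genes in each library. Lengths were summed over all windows before the percent was taken, so genes with many TSSs weigh more. FOXP1 has windows of 56024 bp in all, and a gene with 1 TSS, such as FOXA1, 5001 bp. H3K4me3 covered 17.8% ± 3.0 of the members' windows with siControl alone, 19.8% ± 1.57 with siControl under TGFβ and 17.2% ± 3.30 with siPHF13 under TGFβ (SD, n = 2). H3K27ac covered 6.26% ± 1.80, 8.67% ± 3.22 and 5.67% ± 6.91, and H3K27me3 15.2% ± 7.29, 15.8% ± 0.439 and 11.1% ± 8.56. Every one of these differences between groups was smaller than the larger of the SDs beside it. The group means over the windows of all genes moved in the same directions, though single libraries did not always do so. The ratio of members to all genes over the 6 libraries of each mark lay between 1.03 and 1.18 (H3K4me3), 0.837 and 1.04 (H3K27ac) and 1.26 and 1.52 (H3K27me3). H3K27me3 covered more of the members' windows than of all windows in 6 of 6 libraries, and so did H3K4me3.

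**Figure D4:**
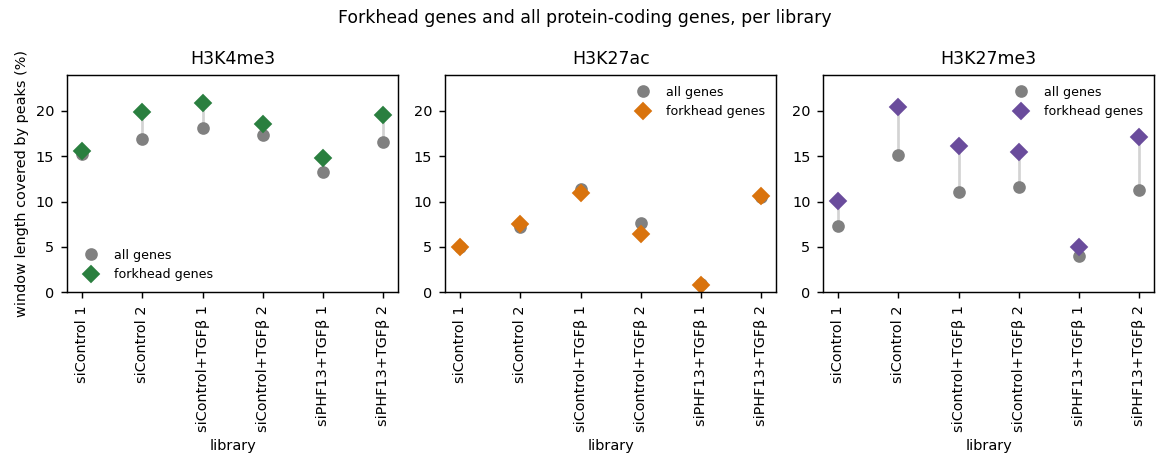
Percent of the total window length under peaks in each library (n = 2 per group), for the 35 forkhead genes (diamonds) and all 19794 genes (grey circles), by mark. The diamonds lie above the circles in all 6 libraries for H3K4me3 and H3K27me3, with siPHF13+TGFβ replicate 1 lowest for each mark. They do not follow the circles at every step. From siControl replicate 2 to siControl+TGFβ replicate 2, H3K4me3 went from 19.9% to 18.6% at the members. Over all genes it went from 16.9% to 17.3%.

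Between siControl+TGFβ and siControl, no member passed the test. By limma on log2(bp covered + 100), with genes that had a peak in at least 2 of 6 lists, 0 of 30 members tested had an adjusted p under 0.05 for H3K4me3 (0.109% of all genes were called higher and 0% lower), 0 of 21 for H3K27ac (0% and 0%) and 0 of 22 for H3K27me3 (0% and 0%). At an unadjusted p under 0.05 the counts were also 0 for each mark, against 3.10% of all genes higher and 0.0408% lower for H3K4me3, 0.700% and 0% for H3K27ac and 0.799% and 2.08% for H3K27me3. The median SE of the members was 0.21 for H3K4me3, 1.49 for H3K27ac and 0.93 for H3K27me3 on the log2 scale. For H3K27ac the SE was 1.49 at every member tested, in a fit that included siPHF13+TGFβ replicate 1. The largest H3K27ac difference of a member was 2.09. With this SE the test could call little, so its 0 does not show that H3K27ac was unchanged. With only the 4 libraries of the comparison, 0 of 11852 genes were called for H3K27ac. The smallest adjusted p of a member was 0.883 for H3K4me3, 0.989 for H3K27ac and 1 for H3K27me3. The median log2 difference of the members tested was 0.16 for H3K4me3 (all genes tested 0.11), 0.38 for H3K27ac (0.57) and 0.14 for H3K27me3 (0.08). Over all 35 members, untested ones included, it was 0.14 for H3K4me3, 0.15 for H3K27ac and 0.00 for H3K27me3, against 0.07, 0.26 and 0.00 over all 19794 genes.

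With 2 libraries a group, an exact two-sided permutation test cannot go below p = 0.33, so groups that do not overlap are given as counts with no test. Both siControl+TGFβ libraries lay above both siControl libraries in H3K4me3 at 7 of 30 members, FOXA3, FOXD3, FOXH1, FOXJ3, FOXK2, FOXN2 and FOXP4, against 46.8% of all genes tested, and below at 1, FOXD2 (2.2% of all genes). In H3K27ac they lay above at 8 of 21, FOXA3, FOXD1, FOXF2, FOXH1, FOXJ3, FOXK2, FOXM1 and FOXN2 (55.2% of all genes), and below at 0 (0.0422%). In H3K27me3 they lay above at FOXB1 and FOXJ1 (2 of 22; 7.64% of all genes) and below at FOXA3 (1 of 22; 7.83%). The higher counts of H3K4me3 and H3K27ac were smaller shares of the members than of all genes, and the H3K27me3 counts were near the background.

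Between siPHF13+TGFβ and siControl+TGFβ, which shares the siControl+TGFβ libraries with the comparison before, again no member passed limma's test at an adjusted p under 0.05. The counts were 0 of 30 for H3K4me3 (0.00679% of all genes called higher and 0.109% lower), 0 of 21 for H3K27ac (0% and 0%) and 0 of 22 for H3K27me3 (0% and 0%). For H3K27ac the SE was again 1.49 at every member tested, so the 0 does not show that the mark was unchanged. At an unadjusted p under 0.05 the counts were 2, 0 and 1, all lower, against 9.29%, 0.0169% and 2.69% of all genes lower and 0.00679%, 0% and 0.145% higher. The H3K4me3 genes were FOXN4 (log2 difference −0.43 ± 0.11 SE, adjusted p = 0.413 by limma) and FOXJ1 (−0.27 ± 0.10, adjusted p = 0.413 by limma), and the H3K27me3 gene was FOXS1 (−2.47 ± 0.83, adjusted p = 0.814 by limma). All 3 were lower in both siPHF13+TGFβ libraries than in both siControl+TGFβ libraries. With each library centred on its median over all genes tested, these differences became −0.23, −0.06 and −1.22, and without siPHF13+TGFβ replicate 1 they were −0.35, −0.19 and −1.56. FOXJ1 had H3K4me3 over 1068 and 1156 bp with siControl under TGFβ and 852 and 963 bp with siPHF13 under TGFβ.

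In this comparison the medians of the members tested lay near those of all genes tested. The median log2 difference of the members tested was −0.19 for H3K4me3 (all genes tested −0.21), −1.13 for H3K27ac (−1.38) and −0.81 for H3K27me3 (−0.84). Over all 35 members it was −0.18, −0.77 and −0.27, against −0.16, −0.78 and 0.00 over all 19794 genes. Both siPHF13+TGFβ libraries lay below both siControl+TGFβ libraries in H3K4me3 at 14 of 30 members (60.9% of all genes) and above at 0 (0.33%). In H3K27ac the counts were 4 of 21 below, FOXA3, FOXD1, FOXJ3 and FOXM1 (10.9% of all genes), and 0 above (0.00844%). In H3K27me3 they were 5 of 22 below, FOXE3, FOXF1, FOXJ1, FOXN1 and FOXS1 (27.2%), and 0 above (1.12%). In an alternative chosen after seeing the data, siPHF13+TGFβ replicate 2 alone was set against both siControl+TGFβ libraries. It lay above both at 4 of 30 members in H3K4me3 (11.0% of all genes), 7 of 21 in H3K27ac (29.3%) and 9 of 22 in H3K27me3 (29.4%). It lay below both at 14 (62.3%), 4 (10.9%) and 5 (28.0%).

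**Figure D5:**
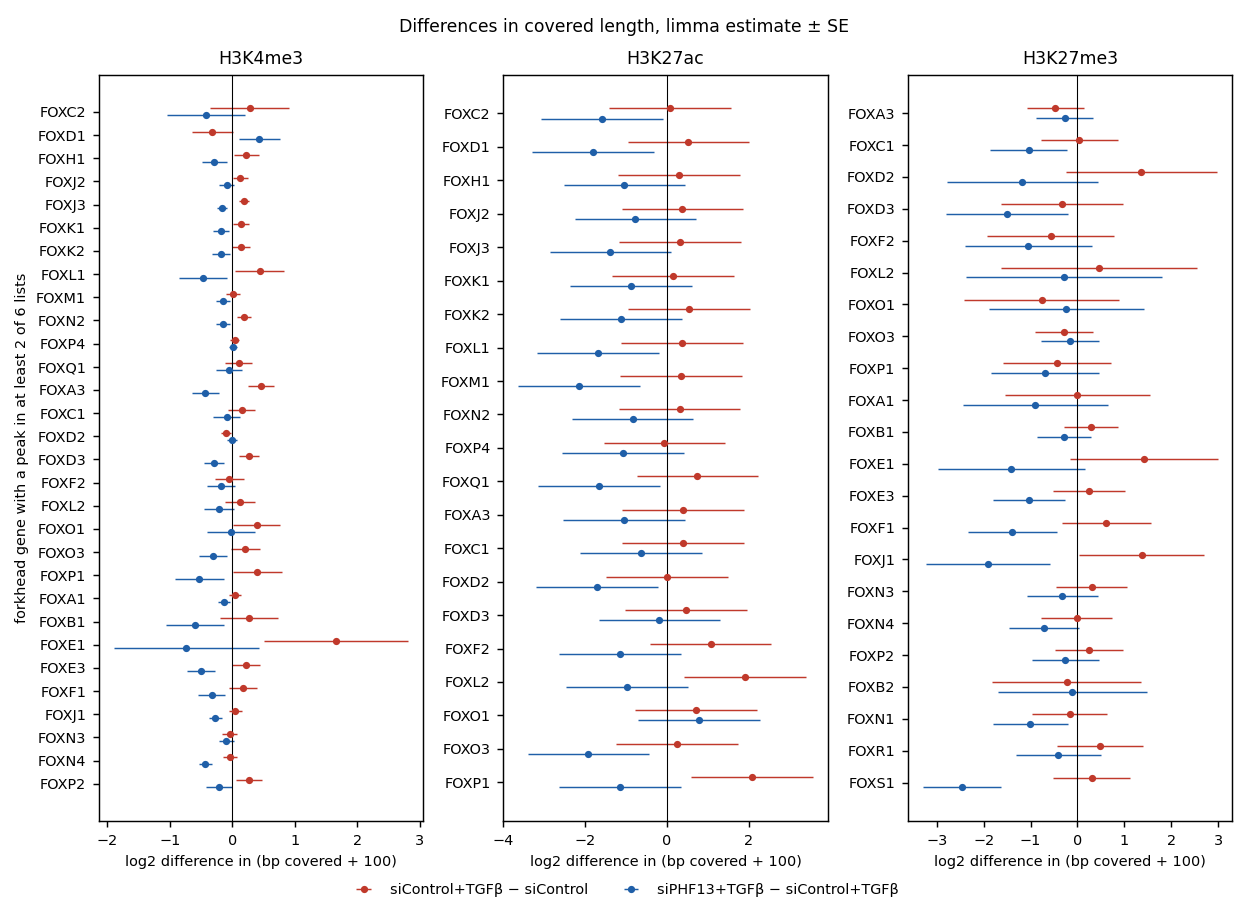
Limma estimates of the log2 difference in (bp covered + 100) with SE bars for each forkhead gene tested, siControl+TGFβ minus siControl in red and siPHF13+TGFβ minus siControl+TGFβ in blue (2 libraries per group). Most red points lie at or above 0 and most blue points below it, as do the medians of all genes (0.11 and −0.21 for H3K4me3), and 0 members passed an adjusted p of 0.05.

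Genes apart in opposite directions in the comparisons, higher with TGFβ and lower with depletion, are listed with the caution that the siControl+TGFβ libraries enter both. For H3K4me3 they were FOXA3, FOXD3, FOXH1, FOXJ3 and FOXN2 (5 of 30; 38.0% of all genes). For H3K27ac they were FOXA3, FOXD1, FOXJ3 and FOXM1 (4 of 21; 10.2%), and for H3K27me3 FOXJ1 (1 of 22; 5.03%). The reverse order was found at 0 members for each mark (0.115%, 0% and 0.392% of all genes).

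FOXD3, a neural crest factor, had H3K4me3 over 1284 and 1608 bp with siControl alone, 1786 and 1702 bp with siControl under TGFβ and 1244 and 1563 bp with siPHF13 under TGFβ. At FOXJ3 it covered 2279 and 2385 bp, then 2658 and 2692 bp, then 2372 and 2386 bp, and at FOXN2 2009 and 2247 bp, then 2384 and 2496 bp, then 2062 and 2324 bp. Their log2 differences with TGFβ were 0.26 ± 0.16, 0.19 ± 0.08 and 0.19 ± 0.11 (SE), and with depletion −0.30 ± 0.16, −0.16 ± 0.08 and −0.15 ± 0.11. With each library centred on its median over all genes tested, the depletion values of FOXJ3 and FOXN2 turned to 0.04 and 0.06. FOXA3 had the larger differences, 0.46 ± 0.21 and −0.43 ± 0.21, with adjusted p = 0.883 and 0.413 by limma, and FOXH1 had 0.22 ± 0.20 and −0.29 ± 0.20. The windows of FOXA3 and FOXH1 also hold the TSSs of SYMPK and PPP1R16A, so these differences cannot be assigned to the forkhead genes. Centring also reduced the depletion differences of FOXA3, FOXD3 and FOXH1, to −0.22, −0.10 and −0.08, and their TGFβ differences became 0.35, 0.15 and 0.11. Those of FOXJ3 and FOXN2 with TGFβ both became 0.08. Without siPHF13+TGFβ replicate 1 the depletion differences were −0.13 at FOXA3, −0.15 at FOXD3, −0.05 at FOXH1, −0.16 at FOXJ3 and −0.07 at FOXN2.

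In the window of FOXA3, which also holds the SYMPK TSS, H3K27ac covered 785 and 834 bp with siControl alone, 1099 and 1081 bp with siControl under TGFβ and 210 and 970 bp with siPHF13 under TGFβ. At FOXJ3 it covered 1628 and 1490 bp, then 1905 and 2053 bp, then 229 and 1826 bp. Replicate 1 of siPHF13+TGFβ was far below all the other libraries at both. The log2 differences with TGFβ were 0.39 at FOXA3, 0.53 at FOXD1, 0.33 at FOXJ3 and 0.35 at FOXM1, all with an SE of 1.49, and those with depletion −1.05, −1.81, −1.38 and −2.15 with the same SE. Centring the libraries turned the TGFβ values to −0.19, −0.05, −0.25 and −0.23 and the depletion values of FOXA3, FOXD1 and FOXJ3 to 0.78, 0.02 and 0.44, and left FOXM1 at −0.33. In siPHF13+TGFβ replicate 1, where 20.3% of all genes had an H3K27ac peak, the median subtracted was that of 0 bp, the floor. The centred depletion values therefore depend in part on that floor. Without siPHF13+TGFβ replicate 1 the depletion differences of the 4 genes were −0.15, −0.19, −0.11 and −0.07.

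FOXJ1, the regulator of motile cilia, had H3K27me3 over 701 and 3702 bp with siControl alone, 4587 and 4237 bp with siControl under TGFβ and 312 and 3370 bp with siPHF13 under TGFβ. The 2 siControl libraries were farther apart than the siControl+TGFβ libraries were from the higher of them. The TGFβ difference was 1.37 ± 1.33 on the log2 scale (SE, adjusted p = 1 by limma) and the depletion difference −1.91 ± 1.33 (adjusted p = 0.814 by limma). The depletion difference was −0.67 with libraries centred and −0.38 without siPHF13+TGFβ replicate 1. FOXE1, outside these groups, had H3K4me3 over 0 and 850 bp with siControl alone, 1021 and 744 bp with siControl under TGFβ and 273 and 812 bp with siPHF13 under TGFβ, the largest H3K4me3 difference with TGFβ among members (1.66 ± 1.16, adjusted p = 0.883 by limma). No gene of the related lists passed limma's test in either comparison, with 0 called in each direction for every mark among the FOXO regulators, FOXO targets, FOXM1 targets and FOXH1 partners, where the smallest adjusted p was 0.413.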

How the data were processed

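Per the labels and the submitters' processing notes, the authors trimmed reads (Trim Galore 0.4.1), aligned them to hg19 (Bowtie2 2.4.1) and called peaks for each library with MACS2 2.2.7.1 (narrow for H3K4me3 and H3K27ac, broad for H3K27me3), and deepTools 3.5.0 and Picard are also named. The deposited lists give each peak's position, a fold enrichment over control (a ratio), −log10 p and q values and a display score. They hold no read counts, so depth is unknown and no interval was computed. Windows of 2500 bp to each side of GENCODE release 44 TSSs on GRCh37 were intersected with the peaks (Python 3.11.15, NumPy 2.4.6, pandas 2.3.3, matplotlib 3.10.9). Limma 3.58.1 in R 4.3.3 tested log2(bp covered + 100) in 1 fit of the 6 libraries of a mark, over genes with a peak in at least 2 lists, with Benjamini-Hochberg adjustment over all genes tested. The scripts were tested on simulated data. The members, role groups, related gene lists and markers were chosen with earlier results of these data known, and the classes by marks after their values were seen. Values in every library were given for members apart in opposite directions in the comparisons, those with the most coverage in siControl and 15 members with roles in epithelial or mesenchymal state, TGFβ signalling or growth, with others named after their values were seen. Alternatives varied the window, TSS, peak threshold, overlap, list length, pseudocount, filter, centring, block and libraries. Promoter sequences are not reported here.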

Additional observations from a re-analysis of the deposited data

How the results depend on the processing

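Of 319 alternative values of 23 differences at single members, 309 kept their sign and 10 did not. The groups did not overlap at any of these 23, so alternatives in pseudocount, filter, block or libraries left out could not turn the sign. Only those in window, TSS, peak threshold, list length and centring could, so the count of 309 is no measure of robustness. With libraries centred, the depletion differences in H3K4me3 became 0.04 at FOXJ3 and 0.06 at FOXN2, those in H3K27ac 0.78 at FOXA3, 0.02 at FOXD1 and 0.44 at FOXJ3, and the TGFβ differences in H3K27ac −0.19 at FOXA3, −0.05 at FOXD1, −0.25 at FOXJ3 and −0.23 at FOXM1. With lists of equal length, FOXM1 became −3.57 in H3K27ac with TGFβ. Leaving out each library in turn, 0 members were called except for H3K27ac with depletion, where the count was 0 to 15. The 15 came without siPHF13+TGFβ replicate 2, when 76.4% of all genes were called and replicate 1, with the shortest list, stood alone. The count with H3K27ac in every list was 7 to 17 (17 without siPHF13+TGFβ replicate 1) and 1 with an overlap of at least 500 bp. The shares of all genes were not computed for counts with a library left out or at this overlap. At −log10 q of at least 3, H3K27me3 in all lists fell to 0 members (12 to 15 leaving out libraries), as did H3K4me3 with H3K27me3 (10 to 12), and no member could be tested for H3K27me3. In alternatives chosen after seeing the data, siPHF13+TGFβ replicate 2 alone lay above both siControl+TGFβ libraries at 4 members for H3K4me3 (11.0% of all genes), 7 for H3K27ac (29.3%) and 9 for H3K27me3 (29.4%), without siPHF13+TGFβ replicate 1, and below at 14 (62.3%), 4 (10.9%) and 5 (28.0%). With lists of equal length, which left 9 members and 5669 genes for H3K27ac, the groups were apart with TGFβ at 5 higher (46.3% of these genes) and 2 lower (4.27%), and with depletion at 2 lower (19.3%) and 0 higher (2.77%). The change in percent of member windows covered, leaving out libraries, was −0.136 to 4.11 (TGFβ) and −4.92 to −0.246 (depletion) for H3K4me3, 0.133 to 4.69 and −7.89 to 1.88 for H3K27ac, and −4.63 to 5.69 and −10.8 to 1.36 for H3K27me3. With a replicate block, 0 members were called for every mark and comparison. Deviations of same-numbered libraries correlated at −0.42 to 0.52, so the numbers were not taken as pairs. Over all genes, H3K4me3 calls numbered 16 with TGFβ and 17 with depletion, 34 and 41 with a pseudocount of 10, and 0 and 0 with a pseudocount of 1000 or the block. The causes were not tested.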
